A study of Homo sapiens with 14 samples.

Results

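The genes described here are 10 members of the ATF4 branch of the stress response: ATF4 and the transcription factors ATF3 and DDIT3, the glutathione-degrading enzyme CHAC1, the amino acid enzymes ASNS and PSAT1, the pseudokinase TRIB3, the growth inhibitors SESN2 and DDIT4, and the phosphatase subunit PPP1R15A. They were chosen by symbol, with earlier results of these data known, and all 10 were found among the 27819 genes shared by the 4 deposited count tables. CWR22Rv1, a human prostate cancer cell line, was sequenced after 72 h with 1 of 4 glycosylation inhibitors or with DMSO, the solvent control. The 14 libraries comprise 3 from DMSO, 3 from Fucotrim I at 30 μM, 2 from Fucotrim II at 60 μM, 3 from SGN-2FF at 100 μM and 3 from P-SiaFNEtoc at 2 μM. Both Fucotrims are sugar phosphate analogs designed to act against GMDS, an enzyme on the route from GDP-mannose to GDP-fucose. SGN-2FF is 2-fluorofucose, and P-SiaFNEtoc is a fluorinated sialic acid with a carbamate group that inhibits sialyltransferases. The study reports that both Fucotrims also lower GDP-mannose and induce apoptosis in this line, which L-fucose did not prevent in another prostate cancer line. For Fucotrim I in CWR22Rv1, the fall in fucose-binding lectin was too small for an inhibitory concentration to be given. The Fucotrims and SGN-2FF are called fucosylation inhibitors below, and the part of these other effects in the changes was not tested. Each inhibitor was given at a single dose, the doses differ, and all libraries come from 1 cell line, so levels with different inhibitors are set side by side and the inhibitors were not tested against each other. The 4 comparisons use the same 3 DMSO libraries and are not independent of each other.

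ATF4 is a transcription factor of the bZIP family whose mRNA is translated more when the initiation factor eIF2α is phosphorylated. EIF2AK3 (also called PERK) does this on stress of the endoplasmic reticulum, EIF2AK4 (GCN2) on lack of amino acids, EIF2AK2 (PKR) on double-stranded RNA and EIF2AK1 (HRI) on lack of heme or mitochondrial stress. ATF4 then acts with C/EBP partners on genes for amino acid synthesis, transport and tRNA charging, on further transcription factors, and on genes that switch the response off. Control of ATF4 itself is largely translational, so its mRNA level need not follow its protein, which was not measured in these libraries.

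The libraries held 12553094 to 19981453 counts on genes. Levels are given as CPM, the depth-scaled count, after TMM scaling of all 14 libraries together. Changes are log2 fold changes from a separate edgeR fit of each inhibitor with DMSO, with their standard error (SE), the percentages of the DMSO level come from the same fits, and a gene was called lower or higher where edgeR's quasi-likelihood test gave a p under 0.05 after Benjamini-Hochberg adjustment over all genes tested. All 10 members passed the filter on low counts in all 4 comparisons. The 6 markers of luminal prostate epithelium reported here (KLK2, KLK3, HOXB13, FOLH1, KRT8 and KRT18) were present in every library, with a sum of 1324 to 1409 CPM in DMSO. Of 10 markers of fibroblasts, leukocytes, endothelial and neuroendocrine cells, only COL1A1 (17.3 CPM) and SYP (105 CPM) reached 1 CPM in the DMSO libraries, and CD3E, CDH5 and CHGA were at 0 counts in all of these. The sum of the prostate markers was above DMSO in every treated library. The prostate markers, with KRT8 the most abundant, summed to 2076 to 2146 CPM with Fucotrim I, 1927 and 2215 with Fucotrim II, 1756 to 1854 with SGN-2FF and 1644 to 1728 with P-SiaFNEtoc. The other markers summed to 117 to 127.9 CPM in DMSO, overlapped by SGN-2FF (112.4 to 125.4) and P-SiaFNEtoc (124.5 to 128.7), and were above DMSO with Fucotrim I (131.4 to 147.7) and Fucotrim II (160.1 and 179.7), with SYP the most abundant in every library. Their part in the results below was not tested.

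The sequences below are places where recognition letters of ATF4 and its relatives occurred before the starts of these genes. Members with and without such letters were called lower with Fucotrim I, and no link between the letters and the changes was tested. The letters shown, searched on both strands, are TGATGNAA and TGACGTCA. TGATGNAA is the core of the C/EBP-ATF response element on which ATF4 acts. TGACGTCA is the cyclic AMP response element that many bZIP factors can bind. Other letters searched, the AP-1 site of DDIT3 among them, are given after the sequences and are not shown. Each stretch of 30 bases is from the RefSeq promoter table (GRCh38.p14, the hg38 build), is written 5′ to 3′ on the strand of the gene, and has the matched letters in capitals.
CHAC1, chr15:40953251-40953280, plus strand: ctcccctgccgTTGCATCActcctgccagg
ASNS, chr7:97872458-97872487, minus strand: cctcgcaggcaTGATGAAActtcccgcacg
ATF3, chr1:212565205-212565234, plus strand: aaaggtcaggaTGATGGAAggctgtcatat
PPP1R15A, chr19:48872352-48872381, plus strand: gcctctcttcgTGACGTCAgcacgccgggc

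The first 3 hold the C/EBP-ATF core, read from the opposite strand in CHAC1, and start 209, 68 and 191 bases before the RefSeq start of the gene. PPP1R15A holds the cyclic AMP response element 58 bases before its start and no C/EBP-ATF core. The 10 members have 16 promoter windows of 300 bases in the table, from 250 bases before a start to 50 after it. The C/EBP-ATF core was found for 3 of the 10 genes, against 4.46% of the 27305 genes in the table, and the cyclic AMP response element for 1, against 2.25%. The CCAAT box (letters CCAAT) was found for 6 of the 10 (ATF3, CHAC1, DDIT3, DDIT4, PSAT1 and SESN2), against 39.7% of genes, the AP-1 site (TGACTCA) for DDIT3 alone, against 6.05%, and the endoplasmic reticulum stress element, which begins with a CCAAT box, for none, against 0.0916%. The windows of ATF4 and TRIB3 held none of these letters. A match is a description of the sequence, and all 30 bases shown for CHAC1, ASNS and PPP1R15A also lie within exons of longer GENCODE transcripts of the same genes.

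**Figure D1:**
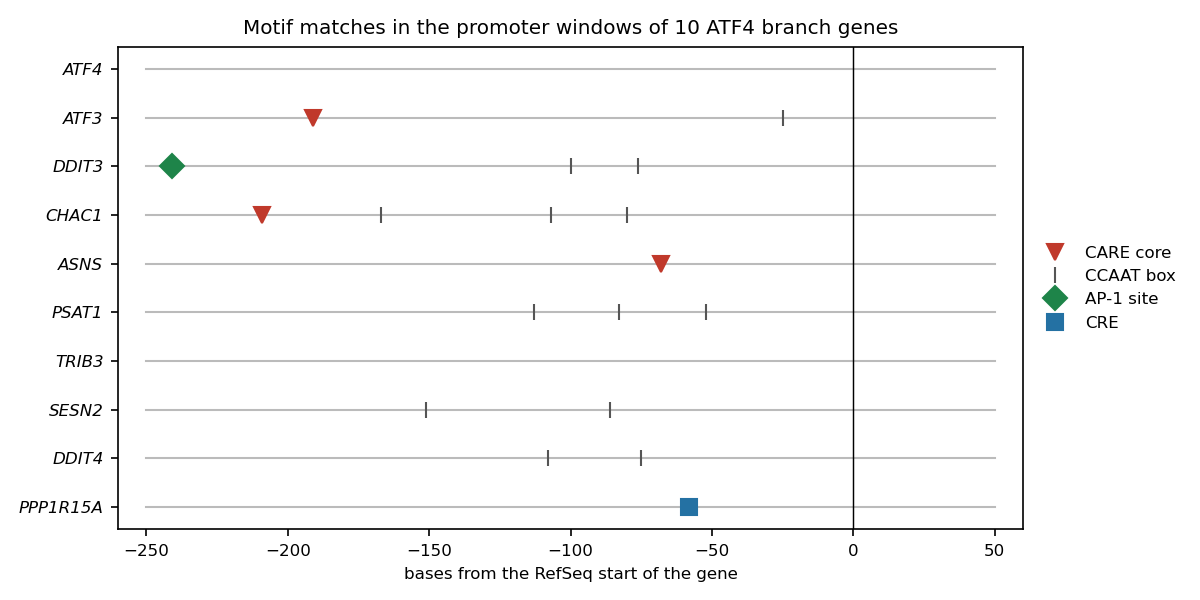
Position of the first base of each motif match, in bases from the RefSeq start (x axis), for the 10 genes (y axis), each grey line being the window from 250 bases before to 50 after a start. Where a gene has several starts, a match is drawn once, from the first window that holds it. The C/EBP-ATF core (CARE core) occurs before CHAC1, ASNS and ATF3, and the cyclic AMP response element (CRE) before PPP1R15A.

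As the members were chosen with earlier results of these data known, the counts below describe them and do not test the list. With Fucotrim I, 9 of the 10 members were called lower than in DMSO and 0 higher. Of the 14188 genes tested in that comparison, 22.1% were called lower and 21.6% higher. The median log2 fold change of the members was -0.67, and that of all genes tested was 0.00. With Fucotrim II, 5 members were called lower and 1 higher, where 25.7% and 25.6% of 14617 genes were, and the members had a median of -0.16. With SGN-2FF, 7 members were called lower and 0 higher, against 9.08% and 11.5% of 14312 genes, with a median of -0.27. With P-SiaFNEtoc, 5 were called lower and 2 higher, against 7.33% and 9.02% of 14259 genes, with a median of -0.12. With 1 library left out in turn, 2 to 5 members were called lower with P-SiaFNEtoc (2 without P-SiaFNEtoc replicate 1, and 3 without P-SiaFNEtoc replicate 2 or DMSO replicate 1 or 3) and 2 higher each time. With Fucotrim II, 3 were called lower without any 1 DMSO library. With the replicate numbers of the titles as a block, 3 members were called in either direction with Fucotrim II in place of 6. ATF4, CHAC1 and ASNS were called lower with all 4 inhibitors, PSAT1 and ATF3 with the 3 fucosylation inhibitors, and PPP1R15A with none. Libraries that did not overlap with DMSO gave a similar split. With Fucotrim I, 9 members were below all DMSO libraries and 0 above, against 27.0% and 25.6% of genes (52.6% in either direction, and 43.8% called in either direction). With Fucotrim II, 5 were below and 2 above, against 34.2% and 33.5% (67.7% in either direction, and 51.4% called). With SGN-2FF, 7 were below and 0 above, against 17.4% and 18.6% (36.0% in either direction, and 20.6% called). With P-SiaFNEtoc, 7 were below and 2 above, against 16.4% and 17.3% (33.7% in either direction, and 16.3% called). In bulk libraries, fewer cells with a transcript and less of it per cell cannot be told apart.

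**Figure D2:**
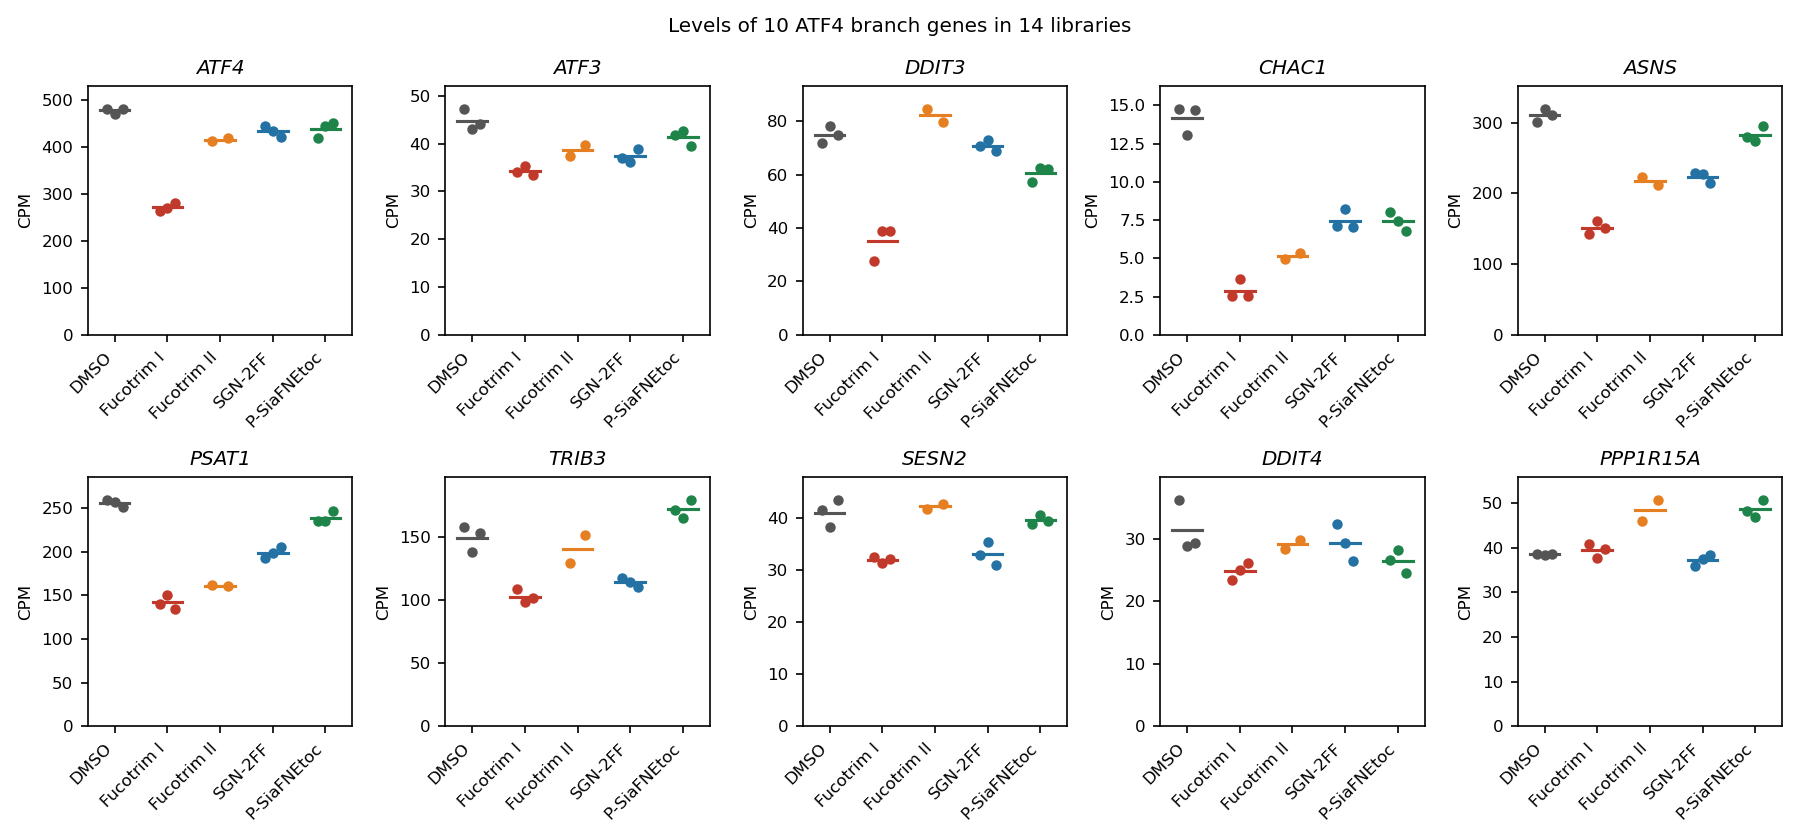
Level of each of the 10 genes in each of the 14 libraries, in CPM on linear axes from 0, with 1 point per library and a line at the mean of each condition (3 libraries, 2 for Fucotrim II). Every treated library of CHAC1 lies under the lowest DMSO library, at 2.51 to 8.20 against 13.1 to 14.8 CPM, while PPP1R15A lies above DMSO with Fucotrim II and P-SiaFNEtoc.

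CHAC1 (NCBI gene 79094, hg38 chromosome 15 from 40952962 to 40956512, plus strand) encodes a γ-glutamylcyclotransferase that degrades glutathione and is a late target of ATF4, ATF3 and DDIT3. It was at 14.8, 13.1 and 14.7 CPM in the 3 DMSO libraries and at 2.51, 3.65 and 2.51 CPM with Fucotrim I. The values were 4.93 and 5.37 CPM with Fucotrim II, 7.12, 8.20 and 7.07 CPM with SGN-2FF, and 8.03, 7.44 and 6.81 CPM with P-SiaFNEtoc. No treated library reached the lowest DMSO library. The Fucotrim I libraries were lowest and those of Fucotrim II next, without overlap, and the libraries of SGN-2FF and P-SiaFNEtoc lay within the same range. With Fucotrim I the log2 fold change was -2.27 (SE 0.15, edgeR adjusted p = 3.00e-10), which left 20.7% of the DMSO level. It was -1.46 (SE 0.13, edgeR adjusted p = 3.13e-05) with Fucotrim II, or 36.2% of DMSO. SGN-2FF gave -0.90 (SE 0.11) and P-SiaFNEtoc -0.92 (SE 0.10), with 53.4% and 52.8% of the DMSO level left. Among all genes tested, ordered from the largest fall, CHAC1 stood at place 3 with Fucotrim I, 89 with Fucotrim II, 31 with SGN-2FF and 21 with P-SiaFNEtoc. It is also the member with the fewest reads, 235 to 269 counts in DMSO and 30 to 54 with Fucotrim I. No exon base of CHAC1 is shared with another annotated gene, and none of 15 alternative settings moved a CHAC1 call with any inhibitor.

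ATF4 (NCBI gene 468, hg38 chromosome 22 from 39519695 to 39522683, plus strand), the factor that gives the branch its name, was at 480.3, 470.0 and 481 CPM in DMSO. With Fucotrim I it was at 263, 269.8 and 280.3 CPM, a log2 fold change of -0.81 (SE 0.05, edgeR adjusted p = 3.56e-11), or 56.9% of DMSO. The other treated libraries were closer to DMSO, with 412 and 418 CPM for Fucotrim II, 443, 434 and 422 CPM for SGN-2FF, and 419, 443 and 449 CPM for P-SiaFNEtoc. Every treated library was nevertheless below every DMSO library. The log2 fold changes of -0.21, -0.13 and -0.12 with these 3 inhibitors were called (edgeR's test, adjusted p = 0.0145, 0.00837 and 0.027). Without TMM factors the value with Fucotrim II was -0.37. The call with Fucotrim II was lost without any 1 of the 3 DMSO libraries (adjusted p from edgeR's test up to 0.0846). It was also lost with a replicate block by titles or by library names (edgeR adjusted p up to 0.253). The call with P-SiaFNEtoc was lost without DMSO replicate 1 or 3 or P-SiaFNEtoc replicate 1 or 2. In 1 fit of all 14 libraries it was lost too (edgeR adjusted p up to 0.146 over these settings). Of the 100-base windows in ATF4 transcripts, 2.58% also occur in its pseudogenes ATF4P3 and ATF4P4, between which the counting could have split reads.

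ATF3 (NCBI gene 467, chromosome 1), a bZIP factor induced by ATF4 that can repress stress genes, was at 47.3, 43.0 and 44.1 CPM in DMSO and at 34.1, 35.4 and 33.4 CPM with Fucotrim I. It was at 37.5 and 39.6 CPM with Fucotrim II, 37.0, 36.2 and 38.8 CPM with SGN-2FF and 41.8, 42.6 and 39.5 CPM with P-SiaFNEtoc, so that each treated library was below the DMSO libraries. ATF3 fell by 0.38 (SE 0.07) on the log2 scale with Fucotrim I, by 0.22 (SE 0.08) with Fucotrim II and by 0.25 (SE 0.06) with SGN-2FF. With P-SiaFNEtoc the value was -0.11, with a 95% confidence interval from -0.23 to 0.00 and adjusted p = 0.178 from edgeR's test. The Fucotrim II call (adjusted p = 0.0357 from edgeR's test) was lost without any 1 DMSO library or without Fucotrim II replicate 1, with adjusted p up to 0.145, and with the DESeq2 test (0.0998). Without TMM factors the value with Fucotrim II was -0.38. With a replicate block by titles or by library names this call was lost as well (edgeR adjusted p up to 0.213).

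DDIT3 (NCBI gene 1649, chromosome 12) encodes CHOP, the bZIP factor tied to cell death under prolonged stress. In DMSO it was at 72.05, 78.3 and 74.9 CPM, and with Fucotrim I at 27.8, 38.8 and 38.9 CPM, a log2 fold change of -1.09 (SE 0.10, edgeR adjusted p = 1.56e-06). P-SiaFNEtoc libraries were at 57.3, 62.7 and 62.1 CPM, also all below DMSO, at -0.31 (SE 0.05, edgeR adjusted p = 8.05e-05). The Fucotrim II libraries, at 84.8 and 79.7 CPM, were above all DMSO libraries, and those of SGN-2FF, at 70.7, 73.2 and 69.0 CPM, overlapped them. Neither passed the test, with log2 fold changes of 0.13 (95% confidence interval -0.03 to 0.28) and -0.07 (-0.17 to 0.03). The value with Fucotrim II was called without Fucotrim II replicate 2, at 0.16 (edgeR adjusted p = 0.0495, with 1 treated library assumed to vary like those of DMSO), and its sign turned without TMM factors, to -0.034. Of the 100-base windows in DDIT3 transcripts, 12.33% are shared with MARS1 or an unnamed GENCODE gene, and 8% of the exon bases overlap another gene on the same strand. Of the exon bases of DDIT3, 31.6% overlap genes on the opposite strand (MARS1 and MBD6 among the overlapping genes), and the sources used here do not give the strand setting of the counting, so reads of these genes cannot be told apart there.

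ASNS (NCBI gene 440, hg38 chromosome 7 from 97851677 to 97872542, minus strand), the enzyme that makes asparagine, is a classical ATF4 target and holds the C/EBP-ATF core nearest to its start among the sequences shown. Its levels were 301, 319.9 and 311 CPM in DMSO and 143, 160.4 and 152 CPM with Fucotrim I. They were 224 and 212 CPM with Fucotrim II, 229, 228 and 214 CPM with SGN-2FF, and 279.8, 274 and 295 CPM with P-SiaFNEtoc. All treated libraries were below the DMSO libraries, and those of Fucotrim II and SGN-2FF overlapped each other. The log2 fold changes were -1.03 (SE 0.05) with Fucotrim I, -0.52 (SE 0.06) with Fucotrim II, -0.46 (SE 0.04) with SGN-2FF and -0.13 (SE 0.04) with P-SiaFNEtoc. The adjusted p-values from edgeR's test were 6.12e-12, 0.000169, 9.03e-10 and 0.0229. The last of these was lost without DMSO replicate 2 or 3 or P-SiaFNEtoc replicate 1 or 2 or in 1 fit of all 14 libraries (edgeR adjusted p up to 0.153). An unnamed GENCODE gene on the same strand overlaps 49.3% of the exon bases of ASNS, and reads there could have been divided.

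PSAT1 (NCBI gene 29968, chromosome 9), an aminotransferase of serine synthesis, was at 259, 257 and 251 CPM in DMSO. It was at 140.3, 150.4 and 135 CPM with Fucotrim I and at 161 and 160.1 CPM with Fucotrim II. With SGN-2FF it was at 193, 198 and 205 CPM and with P-SiaFNEtoc at 235, 235 and 246 CPM. The conditions did not overlap, in the order Fucotrim I, Fucotrim II, SGN-2FF, P-SiaFNEtoc and DMSO from the lowest. The log2 fold change was -0.85 (SE 0.05), -0.68 (SE 0.06) and -0.35 (SE 0.04) with the 3 fucosylation inhibitors. With P-SiaFNEtoc it was -0.10 (95% confidence interval -0.18 to -0.02), which did not pass after adjustment (edgeR's test, adjusted p = 0.0858). It was called in 2 of 15 alternatives, without P-SiaFNEtoc replicate 3 (-0.12, edgeR adjusted p = 0.0313) and without TMM factors (-0.11, edgeR adjusted p = 0.042).

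TRIB3 (NCBI gene 57761, chromosome 20) is induced by ATF4 and DDIT3 and in turn restrains ATF4. It was at 157, 138 and 153 CPM in DMSO, 109, 98.0 and 101 CPM with Fucotrim I, and 117, 114 and 110.1 CPM with SGN-2FF, below DMSO in each library. With P-SiaFNEtoc it was at 172, 165 and 179 CPM, above DMSO in each library. TRIB3 fell by 0.54 (SE 0.06) on the log2 scale with Fucotrim I and by 0.38 (SE 0.05) with SGN-2FF, and it rose by 0.21 (SE 0.05) with P-SiaFNEtoc (edgeR's test, adjusted p = 6.14e-07, 1.82e-06 and 0.00224). The 2 Fucotrim II libraries differed from each other, at 129 and 151 CPM, and overlapped DMSO. The log2 fold change of -0.10 there was not called (95% confidence interval -0.29 to 0.09), and it became -0.22 and was called without Fucotrim II replicate 2 (adjusted p = 0.0128 from edgeR's test) and 0.01 without replicate 1, each with 1 treated library left, assumed to vary like those of DMSO. Without TMM factors it was -0.26 and was called as well (edgeR adjusted p = 0.0366).

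PPP1R15A (NCBI gene 23645, chromosome 19) encodes GADD34, the subunit that directs a phosphatase to eIF2α and so ends the response. DMSO libraries were close together at 38.7, 38.3 and 38.7 CPM. Those of Fucotrim II were at 46.0 and 50.6 CPM and those of P-SiaFNEtoc at 48.2, 46.9 and 50.6 CPM, all above DMSO. The rises were 0.32 (SE 0.07, edgeR adjusted p = 0.00515) and 0.34 (SE 0.06, edgeR adjusted p = 7.04e-05) on the log2 scale. Without TMM factors the value with Fucotrim II was 0.16 and was not called (adjusted p = 0.0964 from edgeR's test). The call with Fucotrim II was also lost with the replicate block by titles. Fucotrim I libraries (40.8, 37.6 and 39.6 CPM) and SGN-2FF libraries (35.9, 37.4 and 38.4 CPM) overlapped DMSO, with log2 fold changes of 0.03 (95% confidence interval -0.10 to 0.17, and -0.040 without TMM factors) and -0.04 (-0.16 to 0.08).

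SESN2 (NCBI gene 83667, chromosome 1) and DDIT4 (NCBI gene 54541, chromosome 10) both restrain mTORC1, the kinase complex that drives growth. SESN2 was at 41.6, 38.2 and 43.5 CPM in DMSO, and it was below these in every library of Fucotrim I (32.6, 31.4 and 32.1 CPM) and SGN-2FF (33.0, 35.5 and 30.9 CPM). The log2 fold changes of -0.36 (SE 0.07) and -0.29 (SE 0.07) were called. Fucotrim II (41.9 and 42.7 CPM) and P-SiaFNEtoc (38.9, 40.6 and 39.5 CPM) overlapped DMSO, with values of 0.04 (95% confidence interval -0.14 to 0.21, and -0.12 without TMM factors) and -0.05 (-0.17 to 0.07). DDIT4 had the highest coefficient of variation of the members in DMSO (13.0%), at 36.2, 28.96 and 29.3 CPM. It was below this range in every library of Fucotrim I (23.4, 25.0 and 26.2 CPM) and of P-SiaFNEtoc (26.6, 28.3 and 24.5 CPM), at -0.34 (SE 0.09, edgeR adjusted p = 0.00398) and -0.25 (SE 0.08, edgeR adjusted p = 0.0284). Both calls were lost without DMSO replicate 1, the highest library, at -0.23 (edgeR adjusted p = 0.0535) and -0.14 (edgeR adjusted p = 0.248). The P-SiaFNEtoc call was also lost without replicate 1 or 3 of that inhibitor, with the DESeq2 test and in 1 fit of all 14 libraries. With Fucotrim II (28.4 and 29.9 CPM) and SGN-2FF (32.4, 29.3 and 26.5 CPM), DDIT4 overlapped DMSO, with log2 fold changes of -0.12 (95% confidence interval -0.36 to 0.13) and -0.09 (-0.27 to 0.09, and 0.020 without DMSO replicate 1).

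**Figure D3:**
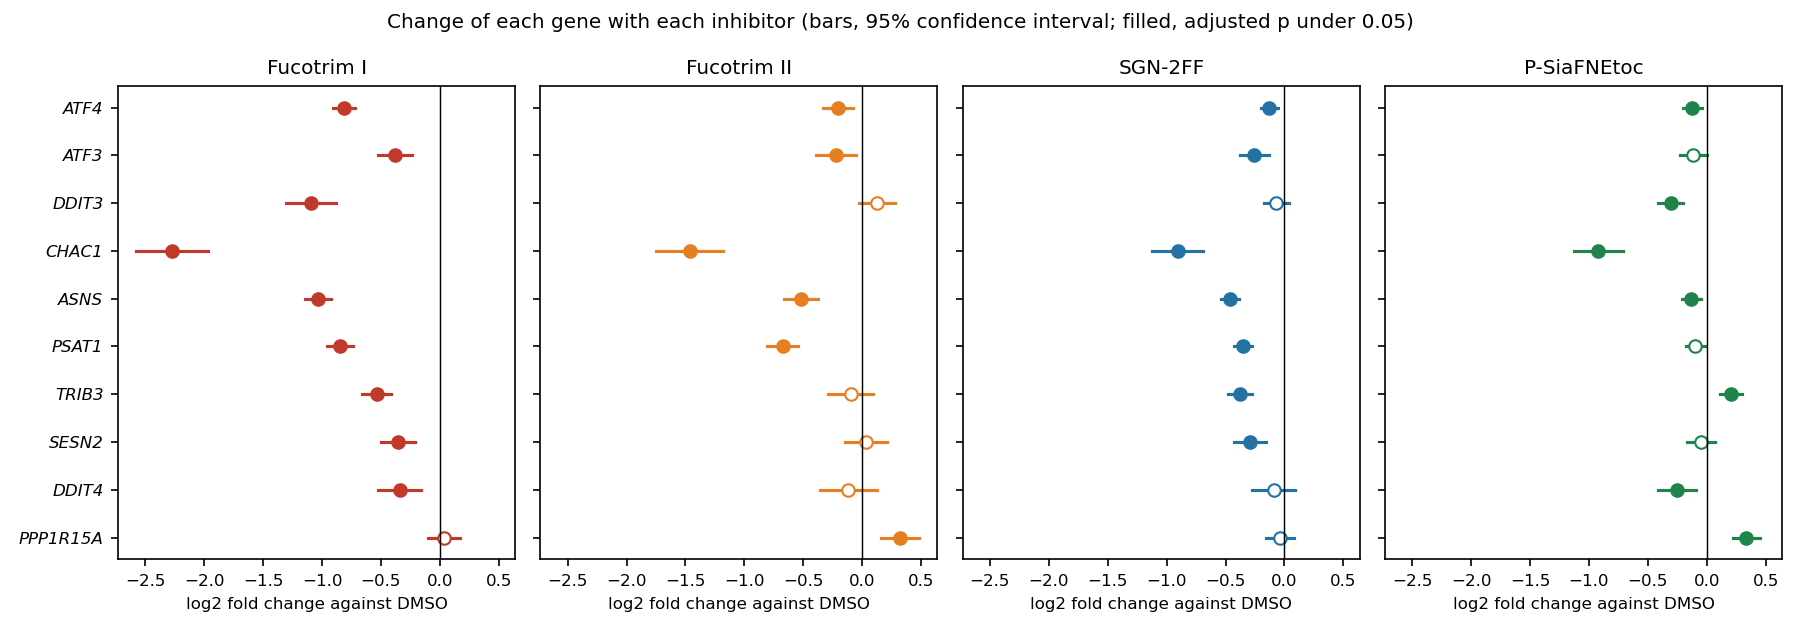
Log2 fold change against DMSO (x axis) of the 10 genes (y axis) with each inhibitor, with bars for the 95% confidence interval and filled points where the adjusted p of edgeR's test was under 0.05. CHAC1 has the lowest value among the 10 genes in each panel, from -2.27 with Fucotrim I to -0.90 with SGN-2FF, and PPP1R15A has the highest, from -0.04 with SGN-2FF to 0.34 with P-SiaFNEtoc.

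To compare levels between genes, CPM were divided by the length of all annotated exons in kilobases. This length can exceed that of the transcripts expressed, so the order is approximate, and the SD covers only the spread of the DMSO libraries. In DMSO, ATF4 was the most abundant of the members at 183 ± 2.36 CPM per kilobase (SD, n = 3), followed by PSAT1 (116 ± 1.91), ASNS (63.4 ± 1.92), DDIT3 (57.5 ± 2.40) and TRIB3 (45.4 ± 3.12). DDIT4 (14.9 ± 1.94), SESN2 (11.9 ± 0.767), PPP1R15A (11.2 ± 0.0617) and ATF3 (11.2 ± 0.556) followed, with the differences among SESN2, PPP1R15A and ATF3 within the SD of SESN2, and CHAC1 was lowest at 6.92 ± 0.478 CPM per kilobase. The gene with the lowest level per length was thus the one with the largest fall in each comparison.

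The share of counts on the 37 genes of mitochondrial DNA was above DMSO in every library of the 3 fucosylation inhibitors and within the DMSO range with P-SiaFNEtoc. It was 5.98% to 7.03% in DMSO, 8.67% to 14.3% with Fucotrim I, 12.2% and 17.0% with Fucotrim II, 8.28% to 8.69% with SGN-2FF and 6.11% to 6.84% with P-SiaFNEtoc. With these genes left out before scaling, the same numbers of members were called, 9, 6, 7 and 7.

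The genes around these members were followed with a wider list that pools the lists described below, paralogs of members and glutathione genes among them. It was also chosen with earlier results of these data known. This list has 89 further genes, of which 87 could be tested. With Fucotrim I, 50 of them were called lower and 13 higher, or 57.5% and 14.9% of the list, against 22.1% and 21.6% of all genes. The numbers were 30 lower and 25 higher with Fucotrim II (34.5% and 28.7%, against 25.7% and 25.6%), and 33 and 8 with SGN-2FF (37.9% and 9.20%, against 9.08% and 11.5%). With P-SiaFNEtoc, 7 were lower and 15 higher (8.05% and 17.2%, against 7.33% and 9.02%), so that the share of lower genes was near that of all genes. With 1 library left out in turn, 3 to 5 were called lower with P-SiaFNEtoc and 12 to 16 higher. In the lists below, the largest rise or fall means the largest among the genes called.

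Among the 4 kinases of eIF2α, EIF2AK2, which senses double-stranded RNA, was called lower with each inhibitor, with log2 fold changes of -0.54, -0.90, -0.45 and -0.25 with Fucotrim I, Fucotrim II, SGN-2FF and P-SiaFNEtoc. EIF2AK3, the kinase of the endoplasmic reticulum, was called lower with Fucotrim I (-0.25) and had values of 0.07, -0.04 and -0.04 with the others. EIF2AK4, the amino acid sensor, was called lower with Fucotrim II (-0.21), and EIF2AK1 was called with none of them. PPP1R15B, the constitutive partner of the same phosphatase as PPP1R15A, was called lower with Fucotrim I (-0.35) and Fucotrim II (-0.46), as was EIF2S1, which encodes eIF2α itself (-0.30 and -0.66). EIF2B5, a subunit of the exchange factor that phosphorylated eIF2α blocks, was called higher with the 3 fucosylation inhibitors, at 0.21, 0.18 and 0.18.

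Of the 14 bZIP partners, 6 were called lower and 1 higher with Fucotrim I (42.9% and 7.14%, against 22.1% and 21.6% of all genes). With Fucotrim II, 2 and 4 were (14.3% and 28.6%, against 25.7% and 25.6%), so that the share of higher genes was near that of all genes. The numbers were 4 and 1 with SGN-2FF (28.6% and 7.14%, against 9.08% and 11.5%) and 2 and 3 with P-SiaFNEtoc (14.3% and 21.4%, against 7.33% and 9.02%). CEBPG, a C/EBP factor that pairs with ATF4, had the largest fall with Fucotrim I (-0.78, to 58.1% of DMSO), and NFE2L2, the antioxidant factor NRF2, with Fucotrim II (-0.44). ATF5, a relative of ATF4, had the largest rise with Fucotrim I (0.32) and SGN-2FF (0.19), and JUN with Fucotrim II (0.58). NFIL3, a bZIP repressor at 4.14 CPM in DMSO, had the largest fall with SGN-2FF (-0.57). With P-SiaFNEtoc, the call of lower JUN (-0.24) came from overlapping libraries, and the rise of FOSL1 (1.46) was from 0.601 to 1.65 CPM.

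Amino acid supply was followed with enzymes and transporters. Of 13 tested genes for amino acid and one-carbon synthesis, 10 were called lower with Fucotrim I, 3 with Fucotrim II, 6 with SGN-2FF and 0 with P-SiaFNEtoc, and 0, 3, 0 and 2 were called higher. With Fucotrim II this was 23.1% in each direction, near the 25.7% and 25.6% of all genes, while the lower genes were 76.9% of the list with Fucotrim I, against 22.1%, and 46.2% with SGN-2FF, against 9.08%. The higher genes were 0% of the list with both, against 21.6% and 11.5%, and with P-SiaFNEtoc the lower and higher genes were 0% and 15.4%, against 7.33% and 9.02%. ALDH1L2, a mitochondrial folate enzyme, had the largest fall with Fucotrim I (-1.10, to 46.7% of DMSO) and SGN-2FF (-0.42), and PSPH, the last step of serine synthesis, with Fucotrim II (-0.63). PYCR1, which makes proline, had the largest rise with Fucotrim II (0.49) and P-SiaFNEtoc (0.29). Of 10 amino acid transporters, 9, 4, 7 and 1 were called lower and 1, 3, 1 and 0 higher with Fucotrim I, Fucotrim II, SGN-2FF and P-SiaFNEtoc. The lower genes were 90%, 40%, 70% and 10% of the list, against 22.1%, 25.7%, 9.08% and 7.33% of all genes. The higher genes were 10%, 30%, 10% and 0%, against 21.6%, 25.6%, 11.5% and 9.02%, near the share of all genes with Fucotrim II and SGN-2FF. SLC7A11, which imports cystine for glutathione synthesis, fell by 2.04, 1.35 and 0.74 on the log2 scale with the 3 fucosylation inhibitors, to 24.3%, 39.2% and 59.7% of its level in DMSO. Its value with P-SiaFNEtoc was -0.06. SLC43A1, a transporter of neutral amino acids, had the largest rise of the list with each of the same 3 (0.83, 1.12 and 0.30). SLC38A2 was the transporter that fell with P-SiaFNEtoc (-0.15).

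Of 13 genes for tRNA charging and export, 12 were called lower with Fucotrim I, 9 with Fucotrim II, 10 with SGN-2FF and 1 with P-SiaFNEtoc, and 0 were called higher with any of them. The lower genes were 92.3%, 69.2%, 76.9% and 7.69% of the list, against 22.1%, 25.7%, 9.08% and 7.33% of all genes, with P-SiaFNEtoc near the share of all genes. Of all genes, 21.6%, 25.6%, 11.5% and 9.02% were called higher. The median log2 fold changes were -0.58, -0.28, -0.19 and 0.00. The largest falls were those of AARS1, the alanine enzyme, with Fucotrim I (-0.76), TARS1, the threonine enzyme, with Fucotrim II (-0.72), and XPOT, the nuclear exporter of tRNA, with SGN-2FF (-0.26) and P-SiaFNEtoc (-0.12).

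Of 17 stress effectors, 7 were called lower and 4 higher with Fucotrim I (41.2% and 23.5%, against 22.1% and 21.6% of all genes). With Fucotrim II, 4 and 8 were (23.5% and 47.1%, against 25.7% and 25.6%). With SGN-2FF, 2 were lower and 0 higher (11.8% and 0%, against 9.08% and 11.5%), and with P-SiaFNEtoc 0 and 6 (0% and 35.3%, against 7.33% and 9.02%). The shares of higher genes with Fucotrim I and of lower genes with Fucotrim II and SGN-2FF were near those of all genes. BBC3, which encodes the cell death protein PUMA, had the largest rise with Fucotrim I (0.70) and Fucotrim II (1.07), and GDF15, a secreted stress hormone, with P-SiaFNEtoc (0.54, from 158 to 229 CPM). STC2, a secreted glycoprotein, had the largest fall with Fucotrim I (-0.79), and HMOX1, the heme oxygenase, with Fucotrim II (-0.79) and SGN-2FF (-0.78).

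CHAC1 acts on glutathione, and 8 genes of glutathione synthesis, reduction and breakdown were followed. Of these, 2, 3, 2 and 1 were called lower with Fucotrim I, Fucotrim II, SGN-2FF and P-SiaFNEtoc (25%, 37.5%, 25% and 12.5%) and 4, 4, 3 and 2 higher (50%, 50%, 37.5% and 25%). Of all genes, 22.1%, 25.7%, 9.08% and 7.33% were called lower and 21.6%, 25.6%, 11.5% and 9.02% higher, so that the share of lower genes with Fucotrim I was near that of all genes. GCLM, the regulatory subunit of the first enzyme of glutathione synthesis, had the largest fall with each inhibitor, with log2 fold changes of -0.69, -1.05, -0.64 and -0.19. OPLAH, which opens the 5-oxoproline ring that γ-glutamylcyclotransferases release, had the largest rise with Fucotrim I (1.20, from 57.6 to 132 CPM) and Fucotrim II (1.59, to 174 CPM). GGT1, which breaks down glutathione outside the cell, had the largest rise with SGN-2FF (0.60) and P-SiaFNEtoc (0.47). CHAC2, the paralog of CHAC1, was called lower with Fucotrim II alone (-0.94) and was at 6.18 CPM in DMSO.

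Paralogs of other members were followed as well. TRIB1, a pseudokinase related to TRIB3, was called higher with each inhibitor (0.54, 0.61, 0.67 and 0.65), and so was DDIT4L, the relative of DDIT4 (0.60, 0.55, 0.32 and 0.47). SESN3 was called lower with SGN-2FF (-0.21) and P-SiaFNEtoc (-0.40), SESN1 with none, and TRIB2, with 4 to 7 counts in the DMSO libraries, was too low to test.

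**Figure D4:**
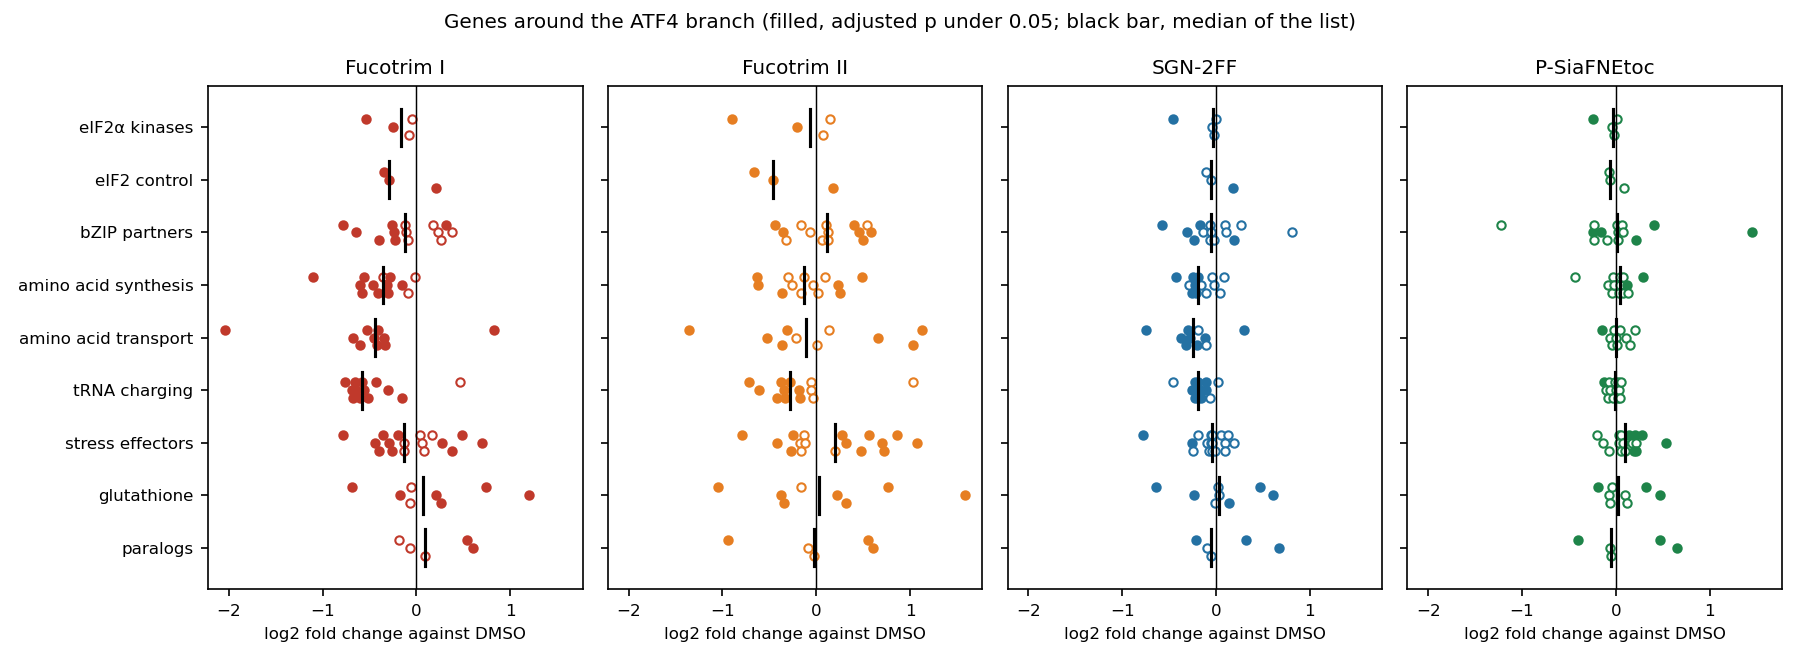
Log2 fold change against DMSO (x axis) of the tested genes of each list around the ATF4 branch (y axis), with each inhibitor in a panel, 1 point per gene, filled where the adjusted p of edgeR's test was under 0.05, and a black bar at the median of the list. The median of the tRNA charging list lies left of 0 with the 3 fucosylation inhibitors, at -0.58, -0.28 and -0.19, and at 0.00 with P-SiaFNEtoc.

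Over the 14 libraries, the genes whose levels were most like those of CHAC1 were UBE2J1, a ubiquitin-conjugating enzyme of the endoplasmic reticulum (Pearson's r of log2 CPM 0.96), TAF7, a subunit of the general transcription factor TFIID (0.95), TERF2IP, a telomere protein (0.94), ESCO1, a cohesin acetyltransferase (0.94), and MFSD9, a transporter-like protein (0.94), among 11100 genes with at least 5 CPM on average. The libraries share 5 conditions and 3 DMSO libraries, so these values describe a pattern over 14 points and carry no test. PLK3 (-0.95), TARP (-0.95) and PTGES (-0.95) were the most opposite. Of the other members, ASNS stood at place 18 from the top (r = 0.92), PSAT1 at 21 (0.92), ATF4 at 52 (0.89) and ATF3 at 61 (0.89). DDIT3 stood at 830 (0.74), DDIT4 at 1676 (0.66), TRIB3 at 2289 (0.60), SESN2 at 2595 (0.57) and PPP1R15A at 6560 (-0.13). The 5 genes most like CHAC1 had log2 fold changes from -0.55 to -0.27 with Fucotrim I, where CHAC1 had -2.27. Their values were -0.21 to -0.08 with SGN-2FF and -0.17 to -0.05 with P-SiaFNEtoc, where CHAC1 had -0.90 and -0.92. Pearson's r does not depend on the size of a change.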

How the data were processed

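RNA of CWR22Rv1 cells was sequenced by the authors as single reads from stranded mRNA libraries, trimmed with Cutadapt, mapped to hg38 with HISAT2 and counted on genes with featureCounts in Galaxy. The deposited counts are raw whole numbers. Each inhibitor has its own table, and the same DMSO counts stand in all 4. The annotation release, strand setting and handling of reads with several places are not given in the sources used here. The SGN-2FF table lists NCBI gene numbers only, and was joined by these. The numbers in the titles of the 2 Fucotrim II libraries differ from those in their library names.

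Each inhibitor was fitted with DMSO in edgeR 4.0.16 (R 4.3.3; filterByExpr with a minimum count of 10 and a minimum total of 15, TMM, robust quasi-likelihood test, Benjamini-Hochberg adjustment over all genes tested). Standard errors come from the fold change and its F statistic. Adjusted p-values in the text are those of edgeR unless another tool is named. Alternatives used DESeq2 1.42.0 and limma 3.58.1 (voom, the tool the study names), other scalings and filters, each library left out, replicate blocks and 1 fit of all 14 libraries. Replicates of 1 condition differed by more than sampling noise (chi-square per degree of freedom 1.59 to 24.2). The study calls them biological repeats.

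The members and the lists were chosen with earlier results of these data known. All members are named. In each further list, the gene called with the largest rise and the largest fall was named for each inhibitor, besides all eIF2α kinases, their control genes and the paralogs, and the 5 genes most and 3 least correlated with CHAC1 (log2 of CPM + 0.5). Positions, exon lengths and overlaps are from GENCODE on hg38, promoters from RefSeq, and figures from matplotlib 3.10.9. Some markers of the cell line are not reported here.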

Additional observations from a re-analysis of the deposited data

How the results depend on the processing

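The calls of members lost in at least 1 alternative were those of ATF4, ATF3 and PPP1R15A with Fucotrim II, of ATF4, ASNS and DDIT4 with P-SiaFNEtoc and of DDIT4 with Fucotrim I, and every other call of a member was kept in all 15 alternatives. With 1 library left out in turn, 8 to 9 members were called with Fucotrim I, 4 to 8 with Fucotrim II, 7 with SGN-2FF each time and 4 to 7 with P-SiaFNEtoc, and over all genes 4877 to 6297, 5916 to 8271, 1642 to 3109 and 1516 to 2115. Over all genes the main numbers were 6209, 7511, 2946 and 2331. SGN-2FF gave 1949 with the DESeq2 test, 1695 in 1 fit of all 14 libraries and 1609 at an adjusted p under 0.01, and P-SiaFNEtoc 1463, 998 and 1171. With P-SiaFNEtoc, the members called went from 7 to 4 in the fit of all libraries, at an adjusted p under 0.01 and without P-SiaFNEtoc replicate 1, and the genes of the wider list from 22 to 11 in that fit and 13 at the stricter threshold. In each of these the cause was not tested.

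The replicate numbers do not mark a shared culture in the labels, and same-numbered libraries did not deviate together throughout (correlations of -0.07, 0.19 and -0.18 with SGN-2FF, 0.04 to 0.32 with Fucotrim I and -0.08 to 0.10 with P-SiaFNEtoc). For Fucotrim II the correlations were -0.35 and -0.44 by the titles and 0.44 and 0.17 by the library names. With the replicate block by titles, 3 members were called with Fucotrim II in place of 6, and 4 with the block by library names; the other inhibitors kept 9, 7 and 7. Calls of ATF4 (adjusted p = 0.253 from edgeR's test), ATF3 (0.213) and PPP1R15A (0.0707) were lost with the block by titles, and those of ATF4 (0.0533) and ATF3 (0.0896) with that by library names. The block changed no other call of a member.

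Signs turned in 6 cases, all of them values that were not called before or after. Without TMM factors, which moved the median of all genes with Fucotrim II from 0.01 to -0.15, DDIT3 (-0.034) and SESN2 (-0.12) with Fucotrim II and PPP1R15A with Fucotrim I (-0.040) turned negative. With 1 library left out in turn, SESN2 with Fucotrim II ranged from -0.021 (without DMSO replicate 2) to 0.070, TRIB3 with Fucotrim II from -0.22, which was called (without Fucotrim II replicate 2, the lone library assumed to vary like DMSO), to 0.013, and DDIT4 with SGN-2FF from -0.16 to 0.020 (without DMSO replicate 1). CHAC1 had 30 to 54 counts in the Fucotrim I libraries, the fewest of the members.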
